A study of Mus musculus with 10 samples.

Results

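Carboxylesterases 1 and 2 are serine hydrolases that cleave ester and amide bonds of lipids, drugs and other xenobiotics. Most of them are held in the endoplasmic reticulum by a retention signal at the C-terminus, which the KDEL receptors recognise. In the small intestine the Ces2 enzymes are known to hydrolyse acylglycerols in absorptive enterocytes and to activate ester prodrugs, and Ces1 enzymes are better known from the liver, where they act on stored triglyceride and cholesteryl esters. The genes described here are Ces1d, Ces1e, Ces1f, Ces1g, Ces2a, Ces2b, Ces2c, Ces2e and Ces2g. These 9 genes were found by symbol among the 35275 genes of the expression table, which lists 20 carboxylesterase genes in all, 16 of them Ces1 or Ces2 genes. They were selected on the FPKM of knockout and control mice, above all the low Ces2a of the knockouts. Both comparisons with control mice are therefore described below with no p-value for these genes. Counts of them past a threshold there only show how the fits differ and are not evidence of a change.

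RNA came from jejunal epithelial cells that were detached mechanically in EDTA from adult male C57BL/6 VillinCreERT2;MYO5Bflox/flox mice on day 4. The villin promoter confines the inducible Cre recombinase to intestinal epithelium, and every mouse carried both the Cre and the floxed alleles. The 3 control mice (2, 4 and 5) received corn oil and were not induced. The remaining 7 mice were induced with 2 mg of tamoxifen to delete MYO5B, of which 4 (mice 3, 5, 6 and 7) were given a vehicle of albumin in PBS and 3 (mice 1, 4 and 5) were given 3 mg/kg of lysophosphatidic acid (LPA) intraperitoneally. They are called vehicle-treated and LPA-treated knockouts, and values per mouse follow the order of mice given here unless mouse numbers are stated. Control mice had no tamoxifen, so the loss of MYO5B and tamoxifen itself cannot be told apart in comparisons with control mice. The labels name LPA-treated knockout 1 with the vehicle on one line and with LPA on another, and it is placed here by its title. These are bulk samples, in which fewer cells of a type and less RNA per cell cannot be told apart.

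Each library held from 10949420 to 24470409 reads on genes. Myo5b lay between 16.5 and 32.0 FPKM in control mice and between 10.3 and 13.6 FPKM in the 7 knockout mice. FPKM are fragments per kilobase of gene, scaled to the fragments of the library, a scale on which levels of different genes can be compared. All 16 enterocyte markers had reads, with a summed level between 21550 and 59400 FPKM, against at most 0.423 FPKM for 6 pancreatic acinar genes. Few genes had reads in control mouse 2 (12242) and vehicle-treated knockout 3 (12601), compared with 17309 to 18267 in the other libraries. Mitochondrial genes took 17.4% and 18.0% of their reads, against 1.98% to 3.50% elsewhere. Vehicle-treated knockout 3 and LPA-treated knockout 1 had Xist at 8.41 and 15.1 FPKM and no read on Y-linked genes, although the labels call all mice male.

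All 9 genes lie on chromosome 8 (coordinates as deposited, GRCm38). The Ces1 genes stand on the minus strand, Ces1d from 93166068 to 93197838, Ces1e from 93201218 to 93229619, Ces1f from 93256236 to 93279747 and Ces1g from 93302369 to 93337308. The Ces2 genes stand on the plus strand, Ces2a from 104734003 to 104741634, Ces2b from 104831572 to 104840093, Ces2c from 104847068 to 104854483, Ces2e from 104926260 to 104934672 and Ces2g from 104961718 to 104969537. No deposited gene overlaps any of them. The longest reading frames of the GENCODE transcripts were 75.6% to 81.8% identical among the 4 Ces1 genes (6 pairs), 81.6% to 92.1% among the 5 Ces2 genes (10 pairs) and 64.5% to 67.4% between both groups (20 pairs). Ces2b and Ces2c were the most alike, at 92.1%. For Ces1d, Ces1e, Ces1f, Ces1g, Ces2e and Ces2g every 100-base window of the transcript occurred in no other annotated gene. The share of such windows was 99.9% for Ces2b, 89.3% for Ces2a, which shares windows with Gm7208, and 84.0% for Ces2c, which shares windows with Ces2d-ps, Gm6831 and Gm8798. How reads in the shared stretches were assigned, or whether they were counted, is not given. The levels of Ces2a and Ces2c carry that uncertainty.

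RefSeq start sites matched 6 of the 9 genes. The 250 bases upstream of the start site are shown for the 4 Ces2 genes among them, because these neighbours fall into a pair that was low in all knockout mice (Ces2a and Ces2e) and a pair that was not (Ces2c and Ces2g). The sequences read 5′ to 3′ on the plus strand of GRCm38.p6, and capitals mark runs of at least 11 bases that occur in another of the 4. They cover chr8:104733753-104734002 for Ces2a, chr8:104846818-104847067 for Ces2c, chr8:104926010-104926259 for Ces2e and chr8:104961468-104961717 for Ces2g.
Ces2a: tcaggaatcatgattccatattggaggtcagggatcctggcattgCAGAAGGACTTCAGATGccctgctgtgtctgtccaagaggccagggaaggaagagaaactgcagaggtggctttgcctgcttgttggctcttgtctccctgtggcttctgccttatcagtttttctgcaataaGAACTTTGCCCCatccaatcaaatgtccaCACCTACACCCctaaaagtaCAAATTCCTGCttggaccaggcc
Ces2c: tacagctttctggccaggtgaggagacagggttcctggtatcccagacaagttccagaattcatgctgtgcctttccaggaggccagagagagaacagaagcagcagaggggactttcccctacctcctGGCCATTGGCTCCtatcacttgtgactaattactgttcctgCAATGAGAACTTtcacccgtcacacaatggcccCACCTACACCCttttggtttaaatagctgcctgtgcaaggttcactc
Ces2e: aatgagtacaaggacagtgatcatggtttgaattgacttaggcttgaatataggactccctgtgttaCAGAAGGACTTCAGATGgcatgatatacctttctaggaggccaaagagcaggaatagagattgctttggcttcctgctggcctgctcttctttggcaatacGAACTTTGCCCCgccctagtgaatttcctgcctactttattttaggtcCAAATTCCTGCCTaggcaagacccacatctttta
Ces2g: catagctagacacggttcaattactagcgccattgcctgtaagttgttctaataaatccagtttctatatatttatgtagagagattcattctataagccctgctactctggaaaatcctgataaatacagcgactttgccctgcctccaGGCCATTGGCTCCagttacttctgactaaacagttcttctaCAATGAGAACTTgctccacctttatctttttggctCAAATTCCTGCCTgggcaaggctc

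Ces2a and Ces2e shared the longest run, CAGAAGGACTTCAGATG (17 bases), which begins 205 bases before the start site in Ces2a and 183 bases before it in Ces2e. Both also shared GAACTTTGCCCC, at 72 and 82 bases before the start site. Ces2c and Ces2g shared GGCCATTGGCTCC, at 121 and 100 bases, and CAATGAGAACTT, at 80 and 59 bases. CAAATTCCTGC occurred in Ces2a, Ces2e and Ces2g, and CACCTACACCC in Ces2a and Ces2c. At a minimum of 11 bases the runs thus joined Ces2a to Ces2e and Ces2c to Ces2g, and also crossed between these pairs. In part this pairing depends on that minimum. The 12-base run of Ces2a and Ces2e begins with the bases that end the 12-base run of Ces2c and Ces2g. All 4 promoters hold these bases, and a word of 7 bases also occurred in all 4. How often promoters of neighbouring family members share such runs was not tested, and no link to the levels is read from them. Motifs were searched on both strands of the same 250 bases in 32851 promoters. CAAAGTT, chosen after the promoters had been read, lay on the minus strand inside GAACTTTGCCCC. It was found in Ces2a and Ces2e of the 6 genes and in 3.31% of all promoters. CAAAGTC was found in Ces2g (3.84% of all promoters), AGGTCA in Ces2a (14.02%), TATAAA in Ces1g (12.4%) and TTTATG in Ces1e, Ces1g and Ces2g (10.8%). GTTAAT (6.43% of all promoters) and AGATAAG (2.74%) were found in none of the 6.

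Ces2a, an acylglycerol hydrolase, was the member with the lowest knockout level relative to control mice. Control mice had 239, 516 and 306 FPKM. Vehicle-treated knockouts had 12.9, 15.5, 14.7 and 14.3 FPKM, and LPA-treated knockouts had 16.01, 24.6 and 26.3 FPKM. Control libraries lay far above all knockout libraries, and each LPA-treated library lay above every vehicle-treated one, the nearest values being 16.01 and 15.5 FPKM. The mean was 354 ± 145 FPKM (SD, n = 3) in control mice, 14.3 ± 1.07 FPKM (n = 4) in vehicle-treated knockouts and 22.3 ± 5.50 FPKM (n = 3) in LPA-treated knockouts. The control mean was 24.7 times that of vehicle-treated knockouts and 15.9 times that of LPA-treated knockouts. The 4 vehicle-treated values spread little, with a coefficient of variation of 7.47%, against 40.9% in control mice.

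Ces2e, also a carboxylesterase of the Ces2 branch, had the highest level of the family in every library. Control mice had 850, 616 and 714 FPKM, vehicle-treated knockouts 264, 238, 222 and 226 FPKM, and LPA-treated knockouts 246, 333 and 357 FPKM. Control and knockout libraries did not overlap. LPA-treated knockouts 4 and 5 lay above all vehicle-treated mice, and LPA-treated knockout 1 lay within their range. The coefficient of variation was 8.03% among vehicle-treated knockouts, close to that of Ces2a.

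Ces2c, which hydrolyses acylglycerols and acylcarnitines, and Ces2g behaved otherwise. For Ces2c, control mice had 11.2, 228 and 123 FPKM, vehicle-treated knockouts 3.38, 170, 149 and 96.2 FPKM, and LPA-treated knockouts 190, 174 and 6.32 FPKM. One library of each group was low, and the other libraries of the 3 groups overlapped. For Ces2g, control mice had 7.47, 29.2 and 18.6 FPKM, vehicle-treated knockouts 6.13, 21.5, 24.4 and 12.1 FPKM, and LPA-treated knockouts 23.0, 13.8 and 9.48 FPKM. It was lowest in the same mice as Ces2c, control mouse 2, vehicle-treated knockout 3 and LPA-treated knockout 5. The low libraries include both that detected few genes, and LPA-treated knockout 5, which did not. These 3 libraries were also alike over all genes tested, in their deviations from their group means. The correlation was 0.55 between control mouse 2 and vehicle-treated knockout 3, and 0.44 and 0.48 between these and LPA-treated knockout 5. Control mouse 4 and vehicle-treated knockout 6, which were not low, reached 0.45. Apoa4, an apolipoprotein of enterocytes, was at 120, 58.3 and 185 FPKM in these 3 libraries and between 2139 and 2905 FPKM in the others. It was 1 of 658 genes with a Pearson's r above 0.9 with Ces2c. The transcription regulator Hnf4a (40.8, 30.6 and 56.1 FPKM) and the deacetylase Aadac (20.6, 24.8 and 58.9 FPKM) were lowest in these 3 libraries too. Other genes were not, such as Nr1h3, which was highest in control mouse 2 (76.4 FPKM).

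Ces2b had few reads. Control mice had 0.744, 3.16 and 0.972 FPKM, and LPA-treated knockouts had 0.480, 0.780 and 0.374 FPKM. Vehicle-treated knockout 3 had 0 reads, which allows up to 0.0804 FPKM (3 reads, counting error only), and mice 5, 6 and 7 of that group had 0.494, 0.172 and 0.0911 FPKM, or 29, 12 and 7 reads. Every vehicle-treated library lay below every control library, whereas LPA-treated knockout 4 lay above control mouse 2.

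Among the Ces1 genes, Ces1f had the highest level in every library. Control mice had 59.8, 178 and 145 FPKM, vehicle-treated knockouts 15.1, 54.3, 51.4 and 43.2 FPKM, and LPA-treated knockouts 54.9, 37.6 and 31.4 FPKM. The lowest control value lay just above the highest knockout value. Ces1e, known as egasyn, is the protein that holds beta-glucuronidase in the endoplasmic reticulum. Control mice had 11.6, 17.5 and 13.3 FPKM of it, vehicle-treated knockouts 3.44, 5.20, 5.52 and 3.72 FPKM, and LPA-treated knockouts 5.30, 3.40 and 3.87 FPKM. Its control libraries lay clear of all 7 knockout libraries.

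Ces1g, known for its part in hepatic lipid metabolism, reached 0.872, 7.81 and 5.95 FPKM in control mice, 0.382, 1.17, 0.533 and 0.223 FPKM in vehicle-treated knockouts and 0.839, 0.508 and 0.754 FPKM in LPA-treated knockouts. Ces1d, also named triglyceride hydrolase, reached 0.361, 3.01 and 3.85 FPKM in control mice, 0.456, 0.0579, 0.0977 and 0.310 FPKM in vehicle-treated knockouts and 0.102, 0.346 and 0.300 FPKM in LPA-treated knockouts. In both genes control mouse 2 lay within the range of the vehicle-treated knockouts and just above the LPA-treated ones, and the other control mice lay clear above both. Ces1d rested on 2 to 14 reads in each vehicle-treated library.

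**Figure D1:**
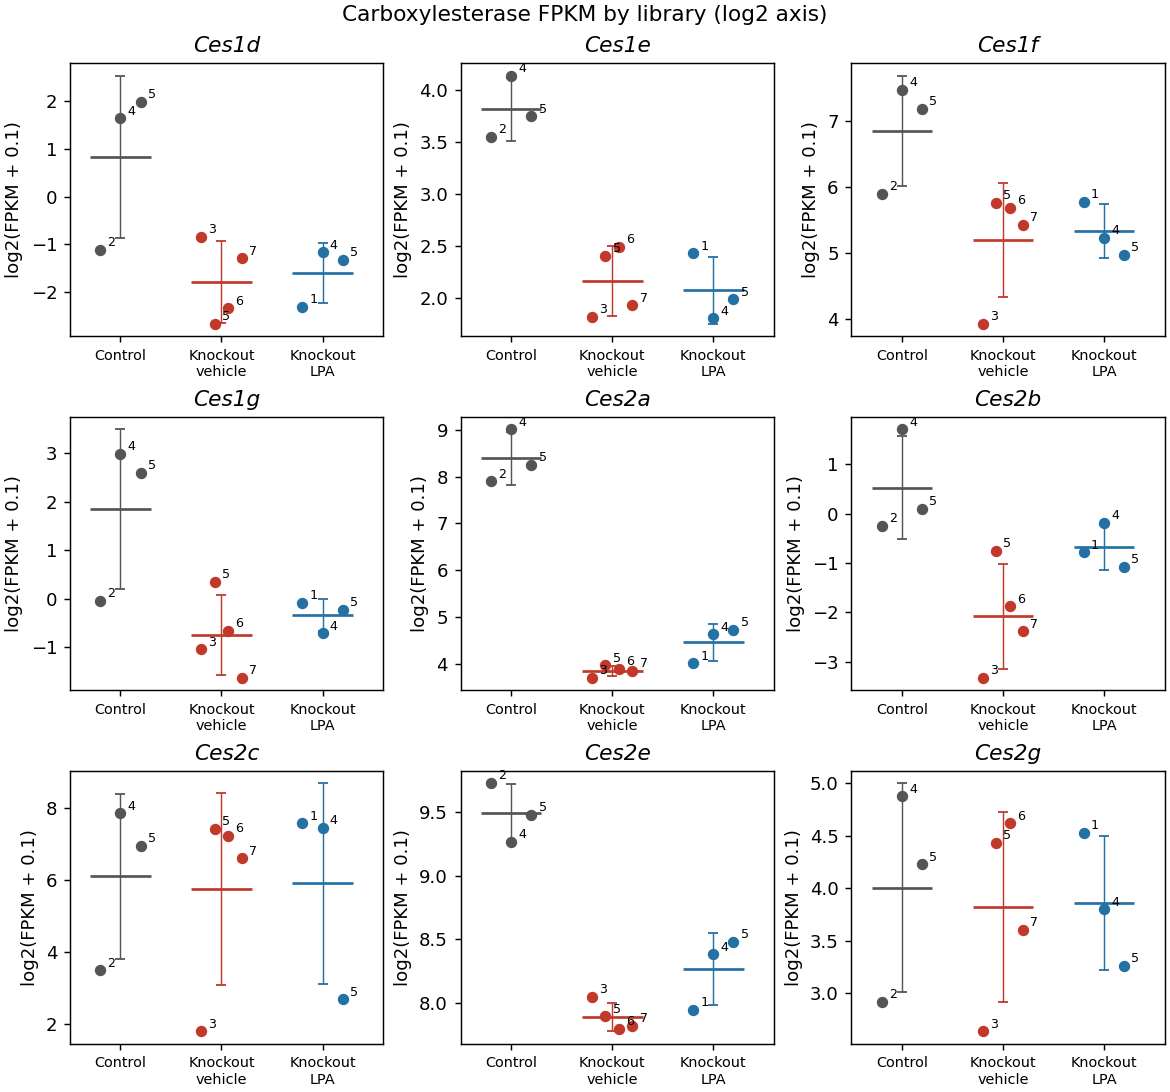
Level of the 9 genes in each library on the log2(FPKM + 0.1) scale, with the mouse number beside each point, a bar at the group mean and whiskers of 1 SD (control n = 3, knockout with vehicle n = 4, knockout with LPA n = 3). Ces2a, Ces2e, Ces1e and Ces1f show no overlap between control and knockout mice, whereas Ces2c and Ces2g overlap and are low in control mouse 2, vehicle-treated knockout 3 and LPA-treated knockout 5.

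The order of mean levels in control mice was Ces2e (727 ± 118 FPKM), Ces2a (354 ± 145), Ces1f (128 ± 61.2), Ces2c (121 ± 109), Ces2g (18.4 ± 10.8), Ces1e (14.1 ± 3.02), Ces1g (4.88 ± 3.59), Ces1d (2.41 ± 1.82) and Ces2b (1.63 ± 1.34; SD, n = 3 for all). The values of neighbours in this order did not overlap from Ces2e to Ces2a, from Ces2a to Ces1f and from Ces1e to Ces1g, and overlapped at the other steps. In vehicle-treated knockouts Ces2c (105 ± 74.4 FPKM, n = 4) and Ces1f (41.0 ± 17.9) stood above Ces2a (14.3 ± 1.07), and Ces2g (16.02 ± 8.44) was near it.

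The FPKM of all 20 carboxylesterase genes summed to between 1183 and 1602 in control mice, between 306 and 507 in vehicle-treated knockouts and between 437 and 590 in LPA-treated knockouts. Ces2a took 20.2% to 32.2% of that sum in control mice, 3.05% to 4.22% in vehicle-treated knockouts and 2.98% to 6.01% in LPA-treated knockouts. The share of Ces2e was 38.4% to 71.9%, 46.9% to 86.3% and 45.8% to 81.7%. Ces2c took 14.3% and 9.25% in control mice 4 and 5 and 24.2% to 35.3% in the 5 knockout libraries in which it was not low. The summed level was thus lower in all knockout mice, and Ces2a took a smaller share of it.

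**Figure D2:**
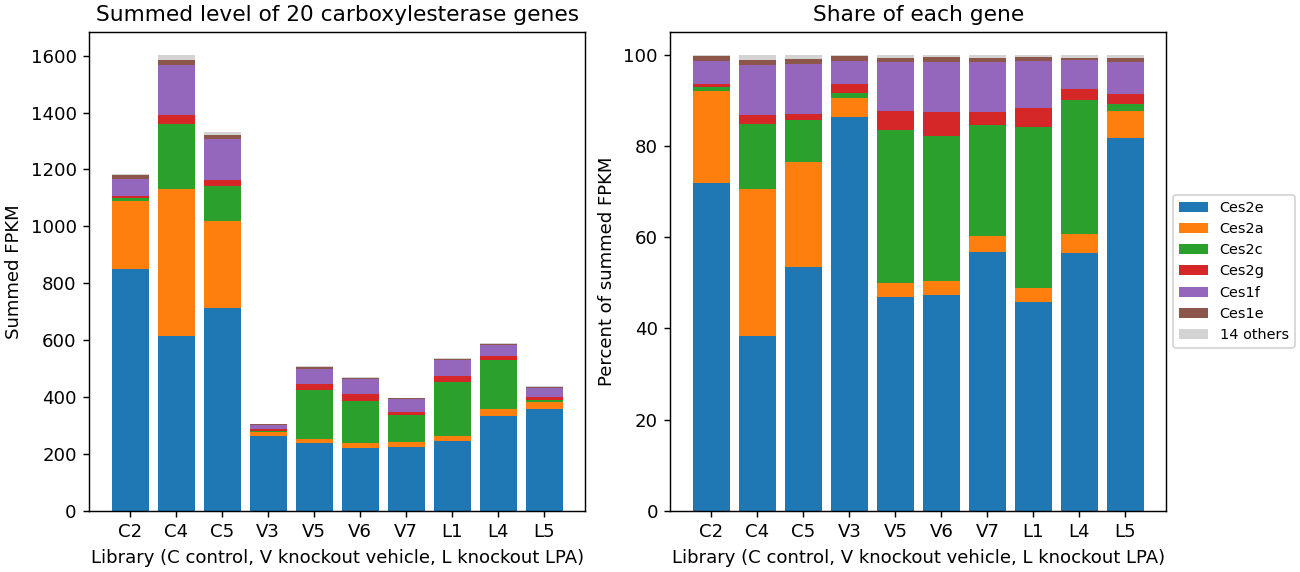
Summed FPKM of the 20 carboxylesterase genes in each library (left) and the percent of that sum taken by each gene (right), with 14 genes of low level drawn together in grey. Control sums lie between 1183 and 1602 FPKM and knockout sums between 306 and 590 FPKM, and the Ces2a share falls between 2.98% and 6.01% in knockout mice.

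In vehicle-treated knockouts against control mice, a contrast that chose the genes, log2 fold changes of FPKM + 0.1 were -4.54 for Ces2a (standard error 0.31), -2.62 for Ces1d (0.81), -2.61 for Ces2b (0.71), -2.60 for Ces1g (0.76), -1.65 for Ces1f (0.51), -1.65 for Ces1e (0.33) and -1.60 for Ces2e (0.25). They were -0.34 for Ces2c (1.63) and -0.18 for Ces2g (0.58). The median of all 15729 genes tested was 0.29, and that of the 9 members -1.65. Ces2a, Ces1e and Ces2e were 3 of 9 members past limma's adjusted threshold of 0.05, beside 2.01% of all genes. Every vehicle-treated knockout library lay below every control library for 5 of 9 members, beside 6.2% of all genes. Since these values selected the genes, nothing is read from these counts.

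LPA-treated against control mice was described in the same way, since both groups took part in the choice of genes and the 3 control libraries are shared with the comparison above. The log2 fold changes were -3.94 for Ces2a (standard error 0.33), -2.43 for Ces1d (0.86), -2.19 for Ces1g (0.81), -1.73 for Ces1e (0.35), -1.52 for Ces1f (0.55), -1.22 for Ces2e (0.27) and -1.20 for Ces2b (0.76). They were -0.20 for Ces2c (1.74) and -0.14 for Ces2g (0.62). Ces2a, Ces1e and Ces2e were 3 of 9 members past limma's adjusted threshold, beside 2.32% of all genes. Every LPA-treated library lay below every control library for 6 of 9 members, all but Ces2b, Ces2c and Ces2g, beside 6.38% of all genes. Nothing is read from these counts either. The median of all genes was 0.41 on the same scale, and 0.10 after median-of-ratios scaling.

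Which members were counted there moved with the fit. Without the 2 libraries that detected few genes, Ces1d (log2 fold change -3.41), Ces1f (-2.0) and Ces1g (-3.14) were counted too, which gives 6 of 9. Without both libraries lacking Y-linked reads Ces2e (-1.06) was not counted, which leaves 2 of 9. With median-of-ratios scaling and with edgeR the 3 counted were Ces1e, Ces1f and Ces2a. Ces2e was counted in 1 of 10 fits that left out a single library, that without vehicle-treated knockout 3, and Ces1e in 3, those without control mouse 2 or vehicle-treated knockout 3 or 5.

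LPA-treated and vehicle-treated knockouts were compared to see whether LPA changed these genes, and both groups took part in the choice of genes through their difference from control mice. No member passed limma's test, nor did any of the 15729 genes (0%), of which 459 had an unadjusted p under 0.05, none of them a member. edgeR called 0 genes and DESeq2 7, none of them a member. Ces2a was higher by 0.60 on the log2 scale (95% interval -0.08 to 1.28, limma's adjusted p = 1), or 1.55 times in means, and was the only member with every LPA-treated library above every vehicle-treated one, as were 3.56% of all genes. Its difference was positive under all 23 alternatives, from 0.47 to 0.82. Since its libraries did not overlap, leaving out libraries or changing the pseudocount could not turn that sign. Ces2e differed by 0.38 (-0.18 to 0.94) and Ces2b by 1.40 (-0.16 to 2.97), and both were positive under all alternatives that kept them. The intervals of Ces1e (-0.81 to 0.64) and Ces1f (-1.0 to 1.26) were narrower than that of Ces2c, whose difference of 0.14 had an interval from -3.47 to 3.75. The signs of Ces1d, Ces1e, Ces1f, Ces2c and Ces2g turned under some alternatives, and those of Ces1d, Ces1f, Ces2c and Ces2g with the scaling between libraries or the count tools. The median of all genes was 0.11 as deposited.

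**Figure D3:**
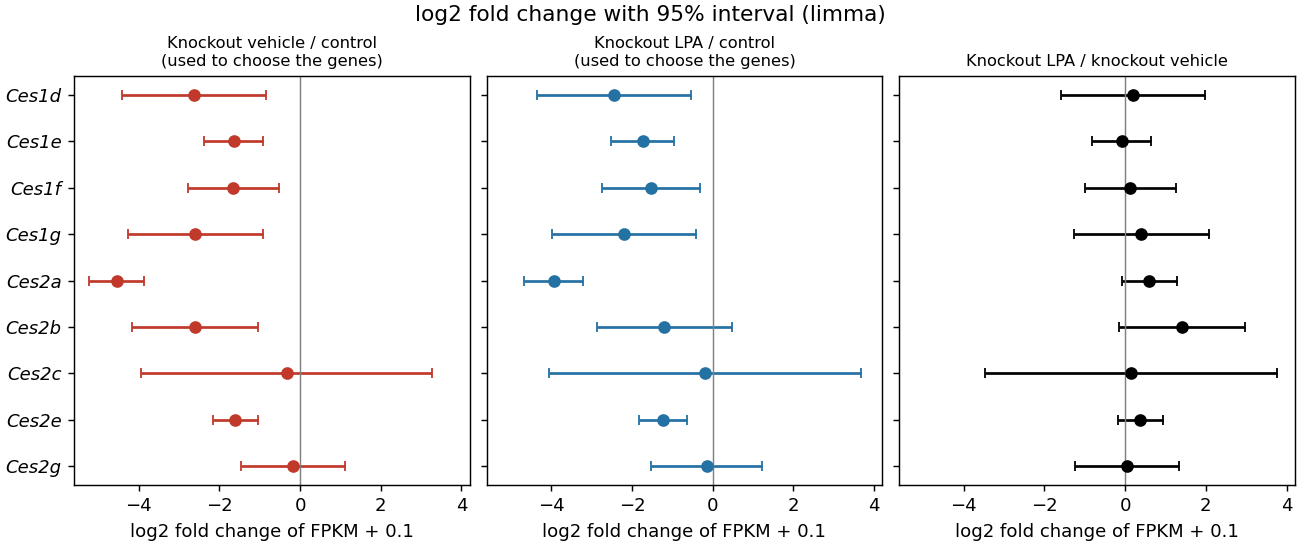
The log2 fold change of FPKM + 0.1 of the 9 genes with its 95% interval from limma, for knockout with vehicle against control and knockout with LPA against control (both used to choose the genes), and knockout with LPA against knockout with vehicle. Ces2a is lowest in both comparisons with control mice (-4.54 and -3.94), and in the third every interval spans 0.

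The members varied together in part. Over the 10 libraries Pearson's r of log2(FPKM + 0.1) was 0.95 between Ces2a and Ces2e, 0.93 between Ces2a and Ces1e, 0.88 between Ces1e and Ces1f and 0.90 between Ces2c and Ces2g. Ces2c had an r of 0.10 with Ces2a and -0.13 with Ces2e, although all 3 genes lie within one cluster. These values describe 10 libraries from 3 groups, and the difference between control and knockout mice is part of them. Within control mice Ces2a and Ces2e stood in opposite order, mouse 4 having the highest Ces2a and the lowest Ces2e.

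**Figure D4:**
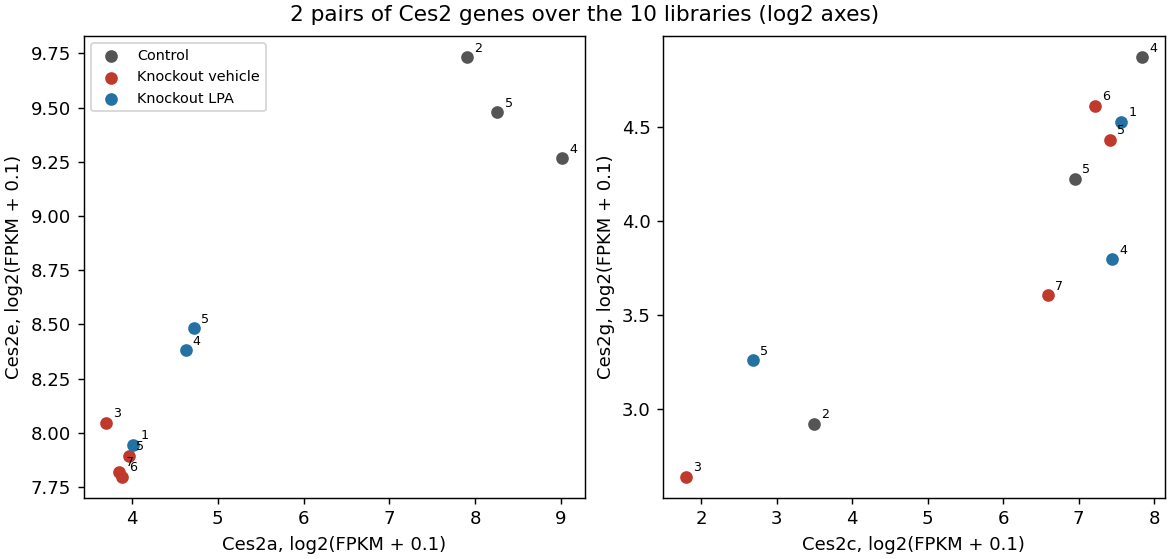
Ces2e against Ces2a (left) and Ces2g against Ces2c (right) on log2(FPKM + 0.1) axes, 1 point per library with its mouse number, coloured by group. On the left control and knockout mice stand apart (r = 0.95), and on the right the groups mix along one line (r = 0.90), with control mouse 2, vehicle-treated knockout 3 and LPA-treated knockout 5 at its lower end.

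**Figure D5:**
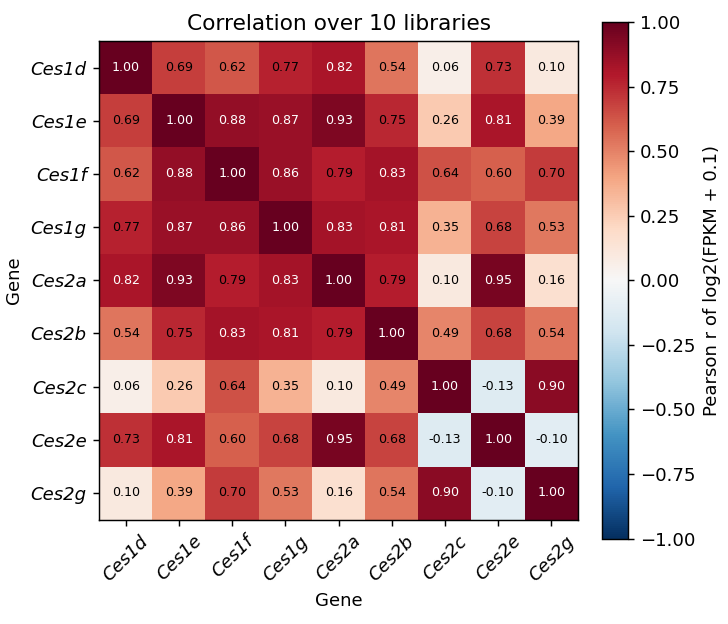
Pearson's r between each pair of the 9 genes over the 10 libraries, on log2(FPKM + 0.1). Ces2c and Ces2g correlate with each other (0.90) and hardly with Ces2a (0.10 and 0.16) or Ces2e (-0.13 and -0.10).

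Outside the family, the genes whose pattern was most like that of Ces2a over the 10 libraries were Sesn1 (r = 0.97), a stress-induced sestrin, Dio1 (0.97), a thyroid hormone deiodinase, Edaradd (0.97), Tgfbi (0.96) and Ogfod3 (0.96). Ces2c was most like Zfpm1 (0.98) and Apoa4 (0.98). Ces2e was most like Dcxr (0.98), Hnf4aos (0.98), Khk (0.97), Lcmt1 (0.97) and Chchd7 (0.97). These neighbours of Ces2c and Ces2e were looked up after the values were seen. More genes exceeded an r of 0.9 with Ces2c (658) and Ces2g (380) than with Ces2a (90), Ces2e (85) or Ces2b (9).

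The other carboxylesterases were near the limit of detection. Of 11, 4 were tested. Ces1c lay between 0 and 1.21 FPKM, Ces2h between 0 and 1.03, Ces3a between 0 and 0.669 and the pseudogene Ces2d-ps between 0 and 0.362, and none passed limma's test in any comparison. Ces1c was highest in vehicle-treated knockout 7 (50 reads), whose 6 hepatocyte marker genes summed to 67.9 FPKM, against 0 to 18.3 FPKM in the other libraries. Control mouse 4 had nearly as much Ces1c (1.03 FPKM) with a hepatocyte sum of 1.21 FPKM. The source of the Ces1c reads was not tested. Ces1a, Ces1b, Ces1h, Ces2f and Ces3b had 3, 22, 1, 7 and 22 reads over all libraries, and Ces4a and Ces5a had 0.

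Gusb, the beta-glucuronidase that egasyn holds in the endoplasmic reticulum, rose in both groups of knockout mice. Control mice had 15.6, 8.87 and 6.93 FPKM, vehicle-treated knockouts 46.3, 52.0, 46.1 and 36.1 FPKM, and LPA-treated knockouts 65.8, 62.1 and 52.9 FPKM. Every knockout library lay above all control libraries. The log2 fold change was 2.17 in vehicle-treated knockouts (limma's adjusted p = 0.00854) and 2.59 in LPA-treated knockouts (adjusted p = 0.00383), each against control mice. The first call was lost without control mouse 5 (adjusted p = 0.0545), with edgeR (adjusted p = 0.0558) and with 2 groups fitted alone (adjusted p = 0.0537), and the second held without each library in turn. The KDEL receptors Kdelr1, Kdelr2 and Kdelr3 had log2 fold changes of -0.39, -0.15 and 0.25 in vehicle-treated knockouts and did not pass limma's test (adjusted p = 0.512, 0.902 and 0.864), although Kdelr1 passed with DESeq2 (adjusted p = 0.0336).

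Of 25 other lipid and xenobiotic hydrolases, 23 were tested. Only Ephx2, a soluble epoxide hydrolase, fell in vehicle-treated knockouts (log2 fold change -1.66, limma's adjusted p = 0.0350), and none passed in LPA-treated against control mice, where its value was -1.46 (adjusted p = 0.0616). That value passed in 9 of 23 alternatives, among them median-of-ratios scaling (adjusted p = 0.0147) and edgeR (0.0242), and between both groups of knockout mice Ephx2 differed by 0.21 (limma's adjusted p = 1). The Ephx2 call in vehicle-treated knockouts held without control mouse 2 and without vehicle-treated knockout 3, and was lost without each of the other 8 libraries (adjusted p up to 0.152) and without both libraries lacking Y-linked reads (0.0645). Aadac, an arylacetamide deacetylase of the same compartment, did not pass in either comparison, at 0.09 and 0.36 on the log2 scale (adjusted p = 0.965 and 0.835 by limma), and both values turned negative with median-of-ratios scaling, edgeR and DESeq2. The median of the hydrolases was -0.07 in vehicle-treated knockouts against control mice, where the median of all genes was 0.29. Of 14 genes of triglyceride handling, Acat2, a thiolase of sterol synthesis, rose in both groups of knockout mice (1.43 and 1.58, limma's adjusted p = 0.0342 and 0.0261), the other 13 did not pass, and the list's medians were 0.29 and 0.51 (all genes 0.29 and 0.41). Of 16 transcription regulators, Nr1h3, which encodes the oxysterol receptor LXR alpha, fell in both (-1.67 and -1.91, adjusted p = 0.0323 and 0.0197). The other 15 did not pass, and the medians were 0.08 and 0.19. In vehicle-treated knockouts the Acat2 and Nr1h3 calls were each lost in 9 of 10 fits that left out 1 library, all but that without vehicle-treated knockout 3 (adjusted p up to 0.115 and 0.105). In LPA-treated knockouts each was lost in 5, those without control mouse 4 or 5 or any of the 3 LPA-treated libraries (adjusted p up to 0.112 and 0.0981). Both Acat2 calls were also lost with median-of-ratios scaling (adjusted p = 0.0928 and 0.115), with edgeR (0.0715 and 0.0965) and without both libraries lacking Y-linked reads (0.0589 and 0.0518). The Nr1h3 call in vehicle-treated knockouts was lost with median-of-ratios scaling (adjusted p = 0.0548) and edgeR (0.0545).

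Few of the cell type markers passed the test. Of 16 enterocyte markers, Lct, the brush border lactase, fell in vehicle-treated knockouts (log2 fold change -8.32, limma's adjusted p = 0.00935), and Lct and Slc5a1, the sodium-glucose transporter, fell in LPA-treated knockouts. Of the 16, 14 had a negative and 2 a positive log2 fold change in vehicle-treated knockouts, with a median of -0.93 (all genes 0.29). In LPA-treated knockouts 12 were negative and 4 positive, with a median of -1.16 (all genes 0.41). The 16 markers summed to 40763 to 53085 FPKM in control mice, 21550 to 35993 in vehicle-treated knockouts and 30883 to 59400 in LPA-treated knockouts. All 12 proliferation markers had a positive log2 fold change in both groups of knockout mice, Rrm2 alone passed, and their sums were 101 to 141, 253 to 412 and 181 to 335 FPKM. The 7 T cell markers in the table summed to 329 to 456, 12.4 to 132 and 21.9 to 42.5 FPKM, with Gzma and Cd7 past the test in both groups of knockout mice and Cd3g in LPA-treated knockouts. Among the 5 B and plasma cell markers in the table, which summed to 4.11 to 18.2, 2.42 to 4.66 and 6.21 to 7.04 FPKM, Cd79a and Mzb1 fell in vehicle-treated knockouts. Myeloid markers (5 in the table) summed to 8.28 to 13.6, 3.46 to 14.1 and 21.6 to 29.4 FPKM, stromal markers (10) to 1.66 to 8.59, 0.498 to 4.70 and 1.89 to 10.4 FPKM, and adipocyte markers (6) to 0 to 7.68, 0.245 to 14.6 and 1.85 to 29.7 FPKM. Of the myeloid, stromal and adipocyte markers only 5, 9 and 1 were tested, and none passed. Adipoq and Lep had 0 reads. The Lct call in LPA-treated knockouts held without each library, and that in vehicle-treated knockouts was lost without control mouse 5 (adjusted p = 0.0669). Of 10 fits that left out 1 library, the call of Mzb1 was lost in all 10, that of Cd79a in 8, that of Cd3g in 7 and that of Slc5a1 in 5. In vehicle-treated and LPA-treated knockouts the call of Cd7 was lost in 9 and 4, that of Gzma in 8 and 7 and that of Rrm2 in 1 and 3, each time also without control mouse 5. Without both libraries lacking Y-linked reads the calls of Mzb1, Cd79a, Cd3g and Gzma, of Cd7 in vehicle-treated knockouts and of Rrm2 in LPA-treated knockouts were lost, and those of Mzb1, Gzma and Cd7 in vehicle-treated knockouts and of Gzma in LPA-treated knockouts were lost without the 2 libraries that detected few genes. The part of these cells in the carboxylesterase levels was not tested.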

How the data were processed

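Polyadenylated RNA of jejunal epithelial cells from 10 mice was sequenced. Per the labels, the submitters' processing notes name STAR (2.5), TopHat, HTSeq (0.6.1) and DESeq2 with the builds GRCm38 and mm10. The authors deposited FPKM for 35275 genes, with no scaling between libraries stated, and counts for a few differentially expressed genes in files whose other columns hold the authors' own fold changes and p-values, which were not used. FPKM multiplied by gene length gave whole reads for 100% of values (within 0.02 of a whole read), and 63 of 63 deposited counts equalled the recovered reads. Whether strand was used in counting is not given in the sources used here.

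Genes averaging 0.1 FPKM or more across all 10 libraries were kept (15729, all 9 members among them), and log2(FPKM + 0.1) entered one limma (3.58.1, R 4.3.3) fit with 3 groups and a variance trend, tested two-sided with Benjamini-Hochberg adjustment. The fold change of genes of low level is understated on this scale. edgeR (4.0.16) and DESeq2 (1.42.0) on the recovered reads, other pseudocounts, filters, scalings and left-out libraries were alternatives. The fits were also run on simulated counts. These had the same spread for all genes and no library that detected few genes, so they do not resemble the real libraries in those respects. The labels number the mice and give no batch, and p-values measure the spread between these samples.

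Members, gene lists and motifs were chosen with earlier results of these data known. Text was given to all members and other carboxylesterases, the 5 genes most correlated with Ces2a, Gusb, Aadac and the list genes past the threshold. The KDEL receptors and the markers past the threshold were named outside this rule, after their values were seen. Reading frames are the longest of each GENCODE M21 transcript, and promoters are from RefSeq. One item is not reported here.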

Additional observations from a re-analysis of the deposited data

How the results depend on the processing

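The log2 fold change of Ces2a, which took part in the choice of genes, lay between -4.85 and -4.23 in vehicle-treated knockouts and between -4.31 and -3.63 in LPA-treated knockouts, each against control mice, over 23 alternatives. Of the 9 members, 3 were past limma's adjusted threshold in vehicle-treated knockouts and 3 in LPA-treated knockouts, beside 2.01% and 2.32% of all genes. Both comparisons with control mice took part in the choice of genes, so nothing is read from these counts. These counts became 6 and 3 with median-of-ratios scaling, 6 and 4 with quantile normalization, 6 and 6 without the 2 libraries that detected few genes, 7 and 5 with a covariate for these, 5 and 3 with edgeR, 7 and 6 with DESeq2, and 1 and 1 when 2 groups were fitted alone. Leaving out each library gave 1 to 5 and 1 to 4. Over all genes the counts of 316 and 365 became 188 and 259 with any read in any library, 598 and 489 with median-of-ratios scaling, 804 and 626 with quantile normalization, 778 and 1346 without the 2 libraries, 2449 and 1800 with the covariate, 443 and 377 with edgeR, 1830 and 1489 with DESeq2, 50 and 190 with 2 groups alone, and 44 to 403 and 73 to 702 when each library was left out. Between LPA-treated and vehicle-treated knockouts 0 genes passed under all alternatives except DESeq2 (7). The cause of these shifts was not tested.

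In the same comparison the log2 difference turned negative for Ces2g with median-of-ratios scaling (-0.0418), quantile normalization (-0.0421), edgeR (-0.0570) and DESeq2 (-0.0616), for Ces1d with quantile normalization (-0.19), edgeR (-0.0595) and DESeq2 (-0.0925), and for Ces1f (-0.0207) and Ces2c (-0.0716) with quantile normalization. Ces1f, Ces2c and Ces2g also turned without the 2 libraries that detected few genes (-0.30, -1.18 and -0.36), without both libraries lacking Y-linked reads (-0.52, -2.01 and -0.69) and with the covariate (-0.26, -1.02 and -0.36). Leaving out single libraries moved it from -0.11 to 0.54 for Ces1d, -0.26 to 0.0484 for Ces1e, -0.30 to 0.32 for Ces1f, -1.18 to 1.75 for Ces2c and -0.36 to 0.34 for Ces2g, and against control mice from -1.49 to 1.41 for Ces2c and -0.69 to 0.29 for Ces2g.

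Of the other genes, Aadac turned negative in vehicle-treated and LPA-treated knockouts against control mice with median-of-ratios scaling (-0.20 and -0.0104), edgeR (-0.29 and -0.16), DESeq2 (-0.32 and -0.18), without the 2 libraries that detected few genes (-0.25 and -0.47) and with their covariate (-0.0960 and -0.38), and ran from -0.75 to 0.59 and -0.47 to 0.83 when each library was left out. In vehicle-treated knockouts Kdelr3 turned with median-of-ratios scaling (-0.0369), edgeR (-0.0745) and DESeq2 (-0.10) and ran from -0.35 to 0.70 over left-out libraries, and Kdelr2 turned without both libraries lacking Y-linked reads (0.21) and ran from -0.64 to 0.21. Calls of Gusb and Lct in LPA-treated knockouts held under all 23 alternatives.

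Mice of different groups share numbers, but the correlation of their deviations was 0.10 between control and LPA-treated knockout 4, 0.30 between control and vehicle-treated knockout 5, and -0.36 and -0.21 between LPA-treated knockout 5 and these, so the numbers were not taken to pair the mice. With a replicate block 302, 0 and 311 genes and 3, 0 and 3 members passed, and the calls of Cd7 in vehicle-treated knockouts (limma's adjusted p = 0.0507) and Cd3g in LPA-treated knockouts (0.0501) were lost; no other call of a named gene changed. Ces2c had 73 to 9140 reads per library, with 3 or 4 mice per group. Its low libraries include both that detected few genes, and the cause of its spread was not tested. Ces1d and Ces2b rest on at most 29 reads in each vehicle-treated library.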
